A study of Mus musculus with 2 samples.

Results

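The BMP and activin antagonists were followed in *Tric-b*-knockout femoral cartilage. They are 9 genes encoding secreted or membrane inhibitors of BMP and activin signals, namely *Grem1*, *Nog*, *Chrd*, *Chrdl1*, *Chrdl2*, *Fst*, *Fstl3*, *Fstl1* and *Bambi*. All probe sets of the array that the platform annotation assigns to exactly 1 of these genes were taken, which gave 14 probe sets of 45037 and 9 genes of 18193. RNA of columnar and hypertrophic chondrocytes was hybridized to 1 array and is called the columnar/hypertrophic specimen, and RNA of round chondrocytes to the other, the round specimen. Both RNAs came from E17.5 embryos whose strain is given as C57BL/6J, 129Sv, Tric-b-KO, so both groups carry the knockout. By the design text each RNA was a mixture of 3 preparations, and the number of embryos behind them is not given in the sources used here. The zones were compared from 1 array each, so that no difference below has a replicate check, a test or an error between animals. Wild-type arrays were not analysed here, and no genotype was compared. The specimens were cartilage plate sections enriched with the named cells and not sorted cells, so fewer cells of a type and less RNA per cell cannot be told apart.

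BMPs and activins are secreted signals that bind pairs of serine/threonine kinase receptors and act through SMAD proteins. Antagonists hold these ligands in the extracellular space or occupy their receptors, and so set where and how far a signal reaches. In growth plates BMP signals promote chondrocyte proliferation and maturation, and noggin is required for joint formation in the mouse.

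The specimens carried most of the markers looked for under their labels. *Col2a1*, *Acan* and *Sox9*, the genes of the main cartilage collagen, of aggrecan and of the chondrocyte master regulator, had signals of 50518, 39969 and 8034 in the columnar/hypertrophic specimen, against 49311, 34757 and 8371 in the round specimen. *Col10a1*, the hypertrophic collagen gene, had a signal of 25421 in the columnar/hypertrophic specimen and 55.2, under the floor explained next, in the round specimen. *Prg4*, the lubricin gene of joint surfaces, had 94.1 in the columnar/hypertrophic specimen and 5260 in the round specimen. The floor is the 40th percentile of all signals, 65.9, and the round value of *Col10a1* is therefore a bound. Of the 4 measured hypertrophic markers, *Alpl* and *Ibsp* were likewise above the floor in the columnar/hypertrophic specimen alone, at least 28.2-fold and 3.29-fold higher, and *Mmp13* was under it in both specimens. The 4 probe sets of *Tmem38b*, the gene of TRIC-B, had signals from 43.1 to 304 in the columnar/hypertrophic specimen and from 69.4 to 323 in the round specimen. Their place relative to the deleted part is not known here, so they do not check the genotype.

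The antagonists split between the zones. *Grem1*, *Chrd* and *Fstl1* had at least 2-fold lower signals in the columnar/hypertrophic specimen than in the round specimen, *Chrdl1* and *Fst* had at least 2-fold higher ones, and *Nog*, *Chrdl2*, *Fstl3* and *Bambi* differed by less than 2-fold. Thus 5 of 9 genes passed the 2-fold rule, against 10.4% of all 12714 genes that could be compared. In the columnar/hypertrophic direction these were 2 genes, with 4.26% of all compared genes on that side. In the round direction these were 3 genes, with 6.17% of all compared genes. The median log2 difference over the 9 genes, columnar/hypertrophic minus round, was -0.30, and that over all compared genes was -0.04. The 9 values ran from -4.91 to 2.85, so the median describes few of them. At a 3-fold rule 4 genes passed, with 3.73% of all compared genes. These were *Chrdl1* and *Fst* on the columnar/hypertrophic side (1.66% of all) and *Grem1* and *Chrd* on the round side (2.07% of all). Counted as probe sets, 8 of 13 compared passed 2-fold against 9.82% of all probe sets, 4 on the columnar/hypertrophic side (3.58% of all) and 4 on the round side (6.24% of all). Where a gene had several probe sets, the one brightest on average over both arrays stands for it. A signal under the floor was set to the floor, which turns the difference into a bound.

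**Figure D1:**
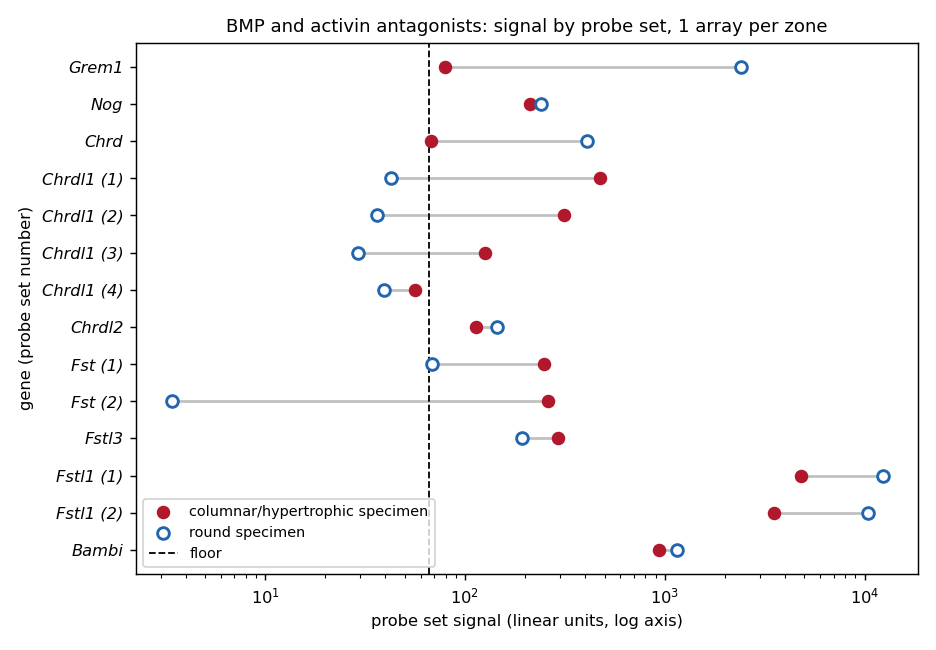
Signals (linear units, log axis) of the 14 antagonist probe sets in the columnar/hypertrophic specimen (filled circles) and the round specimen (open circles), 1 array per zone, with probe sets of a gene numbered from the brightest. Values left of the floor (dashed, 65.9) have no order among themselves, and the widest gap measured above the floor in both arrays is that of *Grem1*, at 79.6 in the columnar/hypertrophic specimen and 2395 in the round specimen.

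The BMP traps with a cystine-knot fold, *Grem1* and *Nog*, had unlike values. *Grem1* encodes gremlin, a secreted protein that binds BMP dimers and keeps them from their receptors. Its only probe set had a signal of 79.6 in the columnar/hypertrophic specimen and 2395 in the round specimen, a log2 difference of -4.91 or 30.1-fold lower. The columnar/hypertrophic value lay just above the floor. Of 11189 genes above the floor in both arrays, *Grem1* ranked as number 3 from the lowest difference. *Nog*, encoding noggin, which covers the receptor-binding surfaces of BMPs, had signals of 210 in the columnar/hypertrophic specimen and 240 in the round specimen. Its log2 difference was -0.19, and it turned to 0.01 after quantile normalization and after lowess centring, so no direction is given for it.

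The chordin family held differences of both signs. Chordin and its relatives bind BMPs through cysteine-rich repeats, and chordin releases its ligand when cleaved by tolloid-type proteases. *Chrd* had a signal of 67.4 in the columnar/hypertrophic specimen, next to the floor, and 409 in the round specimen. The log2 difference was -2.60, a 6.07-fold lower signal, and it ranked as number 47 from the lowest. *Chrdl1*, encoding a chordin-like BMP-binding protein, ran the other way and was above the floor in the columnar/hypertrophic specimen only. Its brightest probe set had a signal of 474 in the columnar/hypertrophic specimen and 42.8 in the round specimen, which is at least 7.19-fold higher when the round value is held at the floor. A second probe set gave 312 in the columnar/hypertrophic specimen and 36.2 in the round specimen, at least 4.73-fold higher. The next one gave 126 in the columnar/hypertrophic specimen and 29.1 in the round specimen, at least 1.91-fold higher, which is short of the 2-fold rule. The fourth was under the floor in both, at 56.3 in the columnar/hypertrophic specimen and 39.5 in the round specimen, and was not compared. The 3 compared probe sets were thus all on the columnar/hypertrophic side, and since their round values lay under the floor, each gives only a bound. *Chrdl2*, the other chordin-like gene, had signals of 113 in the columnar/hypertrophic specimen and 144 in the round specimen, a log2 difference of -0.35.

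The follistatin family also divided. Follistatin, the product of *Fst*, wraps activin dimers and blocks both of their receptor sites. *Fst* had a signal of 248 in the columnar/hypertrophic specimen and 68.6 in the round specimen, next to the floor, on its brighter probe set. The log2 difference was 1.85, a 3.61-fold higher signal, number 108 from the highest of the 11189 genes. The other *Fst* probe set gave 262 in the columnar/hypertrophic specimen and 3.41 in the round specimen, at least 3.97-fold higher, so both probe sets passed the rule on the same side. *Fstl3*, whose product binds activin and myostatin, had signals of 291 in the columnar/hypertrophic specimen and 192 in the round specimen. The log2 difference of 0.60 was on the side of *Fst* but within 2-fold. *Fstl1* encodes a secreted glycoprotein with a follistatin-type domain that dampens BMP signals in the developing mouse lung. Its probe sets gave 4804 and 3538 in the columnar/hypertrophic specimen, against 12347 and 10393 in the round specimen. Their log2 differences were -1.36 and -1.55, and both passed the 2-fold rule.

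*Bambi* encodes a membrane protein built like a type I receptor without the kinase domain, and its transcription is itself induced by BMPs. It had signals of 937 in the columnar/hypertrophic specimen and 1155 in the round specimen, a log2 difference of -0.30. Probe sets of the same gene differed from each other in this log2 difference with a pooled SD of 0.34 over 5446 genes. All were read on the same 2 arrays. The spread therefore lacks the variation between embryos and dissections and any shift shared by the probe sets of a gene. The differences of *Nog* and *Bambi* were smaller than this spread, and that of *Chrdl2*, -0.35, was about equal to it in size.

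**Figure D2:**
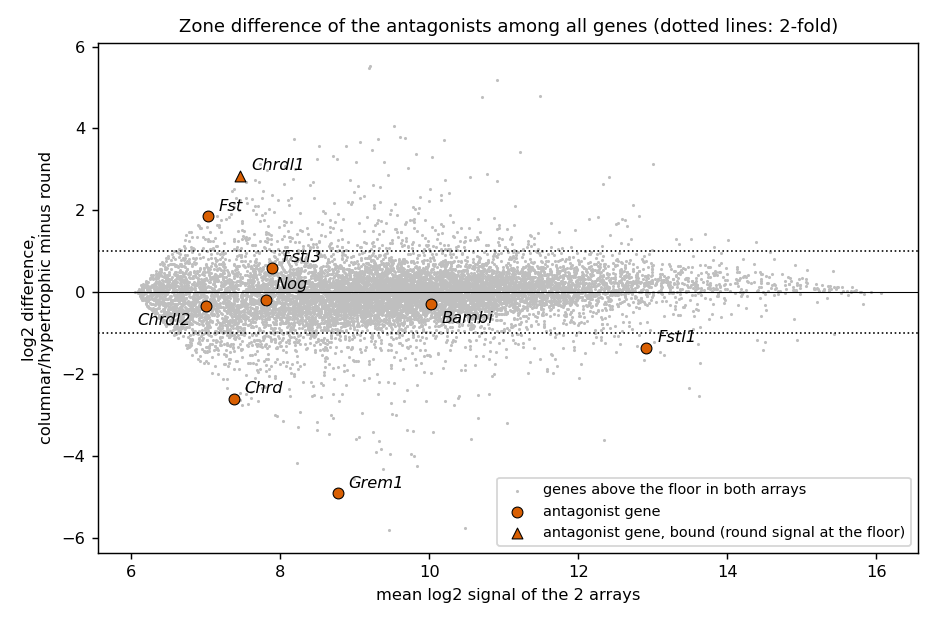
Log2 difference, columnar/hypertrophic minus round, against the mean log2 signal of both arrays, for 11189 genes above the floor in both arrays (grey) and the 9 antagonist genes (orange). Dotted lines mark 2-fold, the triangle is the *Chrdl1* bound, drawn at its floored mean, and *Grem1* at -4.91 and *Chrd* at -2.60 lie on the lower side while *Fst* lies at 1.85.

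Sequences upstream of the start site were taken from RefSeq (GRCm38.p6) for antagonists matched by symbol in its promoter table. Members on 1 chromosome were left out and are not reported here. This gave 4 of 9, *Grem1*, *Chrd*, *Fstl1* and *Fstl3*. The first 3 are those at least 2-fold lower in the columnar/hypertrophic specimen, and *Fstl3* is shown beside them as a gene within 2-fold. The 250 bases before each start site are given 5′ to 3′. Capitals mark GGCGCC, a GC-rich element of BMP-responsive promoters that reads the same on both strands, and CAGAC, the SMAD box, which reads GTCTG on the other strand.
Grem1 (chr2:113758649-113758898, minus strand): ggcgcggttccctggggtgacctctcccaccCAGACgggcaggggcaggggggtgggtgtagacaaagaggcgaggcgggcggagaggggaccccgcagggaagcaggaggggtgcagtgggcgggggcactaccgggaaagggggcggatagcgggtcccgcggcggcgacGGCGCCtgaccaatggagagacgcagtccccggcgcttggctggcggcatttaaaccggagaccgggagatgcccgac
Chrd (chr16:20732877-20733126, plus strand): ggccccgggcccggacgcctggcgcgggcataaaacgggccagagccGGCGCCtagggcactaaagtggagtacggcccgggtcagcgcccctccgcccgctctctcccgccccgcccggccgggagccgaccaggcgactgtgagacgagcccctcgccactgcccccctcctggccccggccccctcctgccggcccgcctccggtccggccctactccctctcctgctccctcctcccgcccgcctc
Fstl1 (chr16:37776805-37777054, plus strand): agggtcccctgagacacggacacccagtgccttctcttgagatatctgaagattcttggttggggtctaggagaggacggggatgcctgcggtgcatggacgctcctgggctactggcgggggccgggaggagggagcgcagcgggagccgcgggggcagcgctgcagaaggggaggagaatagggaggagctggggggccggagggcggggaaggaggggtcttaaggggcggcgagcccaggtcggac
Fstl3 (chr10:79777024-79777273, plus strand): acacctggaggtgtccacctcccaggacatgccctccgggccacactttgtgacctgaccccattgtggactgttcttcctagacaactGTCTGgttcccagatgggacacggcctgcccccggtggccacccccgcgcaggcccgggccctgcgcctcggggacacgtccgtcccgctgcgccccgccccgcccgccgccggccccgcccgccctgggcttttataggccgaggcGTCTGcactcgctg
GGCGCC stood once each in *Grem1* and *Chrd*, starting 78 and 203 bases before the start site, and in none of the other 2. The same windows of 27025 genes held it in 9.54%. CAGAC was found on either strand in *Grem1* (1 match) and *Fstl3* (2 matches), and in 42.1% of all windows. GGGCGG, the GC box, was present in all 4 and in 32.9% of all windows, and TATAAA in *Fstl3* alone of the 4 and in 13% of all windows. No match of 1 motif overlapped that of another. The GC content of the 4 windows was 72% (*Grem1*), 78% (*Chrd*), 68% (*Fstl1*) and 71.2% (*Fstl3*), against a median of 52% over all windows. Letters in these windows describe sequence and not binding.

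Genes of the ligand family also lay on both sides. Of 21 measured BMP, GDF and activin ligand genes, 14 could be compared, 4 were higher by 2-fold or more in the columnar/hypertrophic specimen and 5 lower by as much, which is 64.3% of them against 10.4% of all genes. The median log2 difference of -0.20 turned its sign with the setting, to 0.05 after quantile normalization, 0.04 after lowess centring and 0.31 with a floor at the 20th percentile or none, so it gives no direction. *Bmp6*, a BMP gene of maturing chondrocytes, had signals of 1063 in the columnar/hypertrophic specimen and 232 in the round specimen. *Gdf10*, which encodes a BMP3-like factor, had 13725 in the columnar/hypertrophic specimen and 3802 in the round specimen. *Bmp8a* had 204 in the columnar/hypertrophic specimen and was under the floor in the round specimen, at least 3.10-fold higher. Lower in the columnar/hypertrophic specimen were *Bmp4*, with 110 there and 287 in the round specimen, *Bmp5*, with log2 differences from -1.92 to -1.53 on 3 probe sets, and *Gdf5*, the joint-forming GDF gene, at -1.68. *Bmp7* was at 0.44, although its 3 probe sets ran from 0.44 to 1.62.

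Activin subunit genes can be set beside *Fst*. *Inhba*, the gene of the activin A subunit, had signals of 181 in the columnar/hypertrophic specimen and 479 in the round specimen, a log2 difference of -1.41. *Inhbb*, that of activin B, had 80.5 in the columnar/hypertrophic specimen and 178 in the round specimen, a difference of -1.15. *Inhbe*, of another activin subunit, went the other way, with 303 in the columnar/hypertrophic specimen and 121 in the round specimen. *Inha*, also on the ligand list, was at -0.76. The activin trap *Fst* was therefore higher in the specimen in which the transcripts of activin A and B subunits were lower. The lower signals of *Fst* and *Inhbb* lay near the floor, and *Inhba* and *Inhbb* each had 1 of 2 probe sets compared.

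Receptor genes were past 2-fold in 16.7% of those compared, against 10.4% of all genes. Of 12 compared, 10 were within 2-fold and 2 were lower by 2-fold or more in the columnar/hypertrophic specimen. The median was -0.22. *Eng*, encoding the co-receptor endoglin, had a signal of 106 in the columnar/hypertrophic specimen and 411 in the round specimen. *Rgmb*, encoding a BMP co-receptor, had log2 differences from -1.60 to -0.82 on 6 probe sets. The BMP type I receptor gene *Bmpr1a* was at 0.18 and the type II receptor gene *Bmpr2* at 0.40, with 1 of its 3 probe sets at -0.35.

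Among 12 SMAD pathway genes, 9 were within 2-fold and 25% were past it, against 10.4% of all genes. *Smad1*, a carrier of BMP signals, had 3961 in the columnar/hypertrophic specimen and 1277 in the round specimen, with log2 differences from 1.49 to 1.64 on 3 probe sets. *Smad3*, a carrier of activin and TGF-β signals, was at -1.09, and its 3 probe sets ran from -1.40 to -0.46. *Smurf1*, the gene of a ubiquitin ligase acting on BMP SMADs, was at 1.21.

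Of 26 measured further modulators, 15 could be compared and 2 passed 2-fold, which is 13.3% against 10.4% of all genes. With no floor, 5 were higher and 3 lower in the columnar/hypertrophic specimen, and 24.5% of all genes passed 2-fold. *Tmeff1*, encoding a membrane protein with follistatin-type domains, had 599 in the columnar/hypertrophic specimen and 126 in the round specimen. *Vwc2*, the gene of the BMP-binding protein brorin, had 160 in the columnar/hypertrophic specimen and 731 in the round specimen, on a probe set whose probes can match other transcripts. *Bmper* was at -0.01 and *Twsg1*, the chordin partner twisted gastrulation, at 0.43.

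Of 13 compared target genes of BMP signals, 1 was at least 2-fold higher and 1 lower in the columnar/hypertrophic specimen, or 15.4% against 10.4% of all genes, and the median was 0.16. With a floor at the 20th percentile or none, 4 were higher and 1 lower and the median was 0.36. The share of all genes past 2-fold rose there too, to 15.5% (20th percentile) and 24.5% (no floor). At the 60th percentile the median of the BMP targets was -0.10. *Id1*, *Id2* and *Id3*, which encode inhibitors of DNA binding and are classical BMP targets, had log2 differences of 0.39, -0.08 and -0.13. *Dlx5*, a homeobox gene of maturing chondrocytes, had 2019 in the columnar/hypertrophic specimen and 224 in the round specimen, and *Id4* was at -1.50, with 3 probe sets from -1.76 to -1.30. All 5 compared TGF-β and activin targets were within 2-fold on the probe set used, with a median of -0.59. Among them *Tgif1* was at -0.67, *Smad7* at -0.64, *Ldlrad4* at -0.59 and *Skil* at 0.11. The other probe set of *Smad7* was at -1.03, past 2-fold. *Smad7* and *Skil* also count among the SMAD pathway genes, and *Smad7* among the BMP targets.

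**Figure D3:**
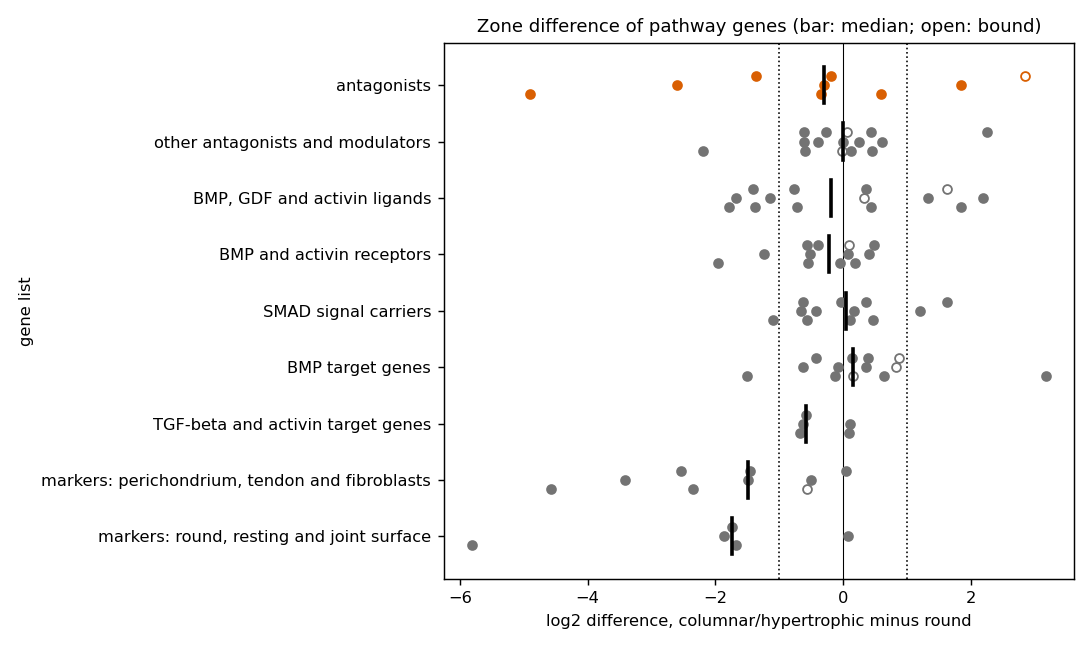
Log2 difference, columnar/hypertrophic minus round, of every compared gene (points, open where it is a bound) in the antagonist list, 6 further pathway lists and 2 marker lists, with list medians as black bars and 2-fold as dotted lines. Beyond 2-fold lie 5 of 9 antagonists and 9 of 14 ligands, 2 of 12 receptor genes, 3 of 12 SMAD genes and 2 of 13 BMP target genes, against 10.4% of all compared genes.

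Most compared markers of perichondrium, tendon and fibroblasts were lower in the columnar/hypertrophic specimen, as were *Grem1*, *Chrd* and *Fstl1*. Of 11 measured genes of perichondrium, tendon and fibroblasts, 9 could be compared and 6 were at least 2-fold lower there, against 6.17% of all compared genes. The summed signal of the 11 was 35587 in the columnar/hypertrophic specimen and 90113 in the round specimen. Of these sums *Lum*, the 1 compared gene that was not lower, held 22176 in the columnar/hypertrophic specimen and 21458 in the round specimen. *Col3a1* had 5232 in the columnar/hypertrophic specimen and 30420 in the round specimen, the tendon gene *Tnmd* had 78.0 in the columnar/hypertrophic specimen and 214 in the round specimen, and *Pi16* was under the floor in both on its 2 probe sets. *Scx* was under it in both on the brighter of its 2 probe sets, and the other gave a log2 difference of -0.26. Of 5 measured genes of round, resting or joint-surface cells, 4 were at least 2-fold lower in the columnar/hypertrophic specimen, again against 6.17% of all. *Gdf5* of the ligand list was among them. The summed signals of the 5 were 8795 in the columnar/hypertrophic specimen and 31440 in the round specimen. The part of both marker lists in the differences of *Grem1*, *Chrd* and *Fstl1* was not tested. Beside *Chrdl1* and *Fst* stood the 5 columnar and prehypertrophic markers, all higher there by 2-fold or more, with *Ihh* at 3900 in the columnar/hypertrophic specimen and 87.8 in the round specimen. Of 8 measured skeletal muscle genes 4 could be compared. Of these 3 were at least 2-fold higher on that side, against 4.26% of all compared genes, *Actc1* and *Tnnt3* as bounds. *Tnni2* went the other way, with 501 in the columnar/hypertrophic specimen and 644 in the round specimen. Summed signals of the 8 were 1527 in the columnar/hypertrophic specimen and 928 in the round specimen. *Myog*, *Myh3* and *Myl1* were under the floor in both. *Ckm* was under it on the brighter of its 2 probe sets, and the other gave a log2 difference of 0.05. The part of these columnar and muscle markers was not tested either. Of 16 measured endothelial, erythroid and myeloid markers, 9 could be compared and none of these passed the 2-fold rule, against 10.4% of all compared genes. *Pecam1*, *Cdh5*, *Emcn*, *Alas2* and *Cd68* were bounds, so that their differences may be larger than the values used. Of 4 osteoblast markers, all compared, the type I collagen gene *Col1a1* had 342 in the columnar/hypertrophic specimen and 1583 in the round specimen, on the side of *Grem1*, *Chrd* and *Fstl1*. *Sp7*, the Osterix gene, which is also on the prehypertrophic list, had 1342 in the columnar/hypertrophic specimen and 141 in the round specimen. *Dmp1* and *Phex* did not pass the 2-fold rule, but both were bounds with round signals under the floor. The part of these osteoblast genes was not tested.

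The sign of 8 antagonists was the same in every setting in which they had a value, and only that of *Nog* turned. *Grem1*, *Chrdl1* and *Fstl1* passed 2-fold in each such setting. By construction a changed floor cannot turn a sign. A gene with only 1 probe set keeps its value with the mean over probe sets. On probe sets without an s, x or a suffix it keeps or loses that value. For such genes only the other scalings could turn the sign. With the floor at the 60th percentile of all signals, 207, *Chrd* was at -0.98 and *Fst* at 0.26, and neither passed the rule. Their lower signals were then set to 207, against higher signals of 409 (*Chrd*, round) and 248 (*Fst*, columnar/hypertrophic).

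**Figure D4:**
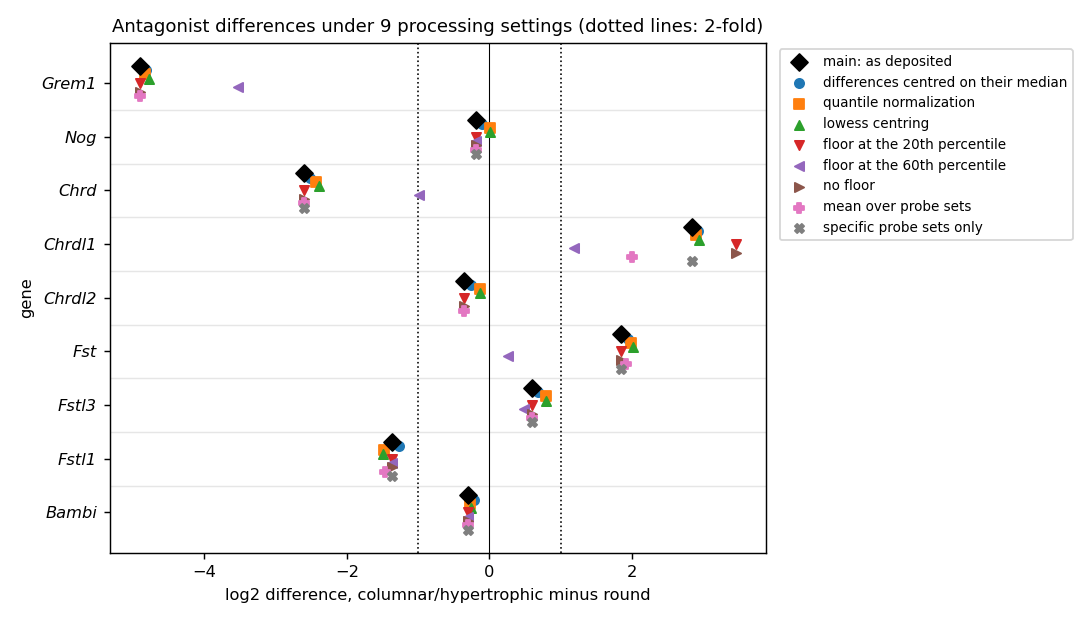
Log2 difference, columnar/hypertrophic minus round, of each antagonist gene with the values as deposited (black diamonds) and under 8 other settings (coloured markers), with dotted lines at 2-fold. *Fstl1* stays between -1.50 and -1.27, whereas *Fst* lies between 0.26 and 2.01 and *Chrdl1* between 1.20 and 3.47.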

How the data were processed

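Gene expression in E17.5 *Tric-b*-knockout femoral cartilage was measured on 2 Affymetrix mouse genome GeneChips, 1 per zone, grouped by the sample labels. The authors deposited 1 linear intensity per probe set and array. MAS5 is the tool in the submitters' processing notes, without a version, although the heatmaps of the paper were made with robust multiarray analysis on a log scale. The highest intensity was 68899. After trimming 2% at both ends the mean was 496 (columnar/hypertrophic) and 497 (round), and no further scaling was applied. Detection calls were not used here. The number of arrays limits the precision.

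Of 45037 probe sets, 34945 had 1 gene symbol in the platform annotation, 932 had several and were not named, and 9160 were unnamed here. Symbols were checked through Entrez identifiers, and 0 changed. A probe set at or under the floor (the 40th percentile of all signals) in both arrays was not compared. No test was possible with 1 array per zone, and a size rule of 2-fold was used. The 9 genes and all gene lists were chosen with earlier results of these data known. Named genes were the 9 antagonists, pathway genes past 2-fold or with the largest differences, and zone markers; *Bmp7*, *Bmpr1a*, *Bmpr2*, *Bmper*, *Twsg1*, *Id1*, *Id2*, *Id3*, *Skil* and further markers were added as examples after their values were seen.

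Alternatives were 3 other scalings (median centring, quantile normalization, lowess with a span of 0.3), a floor at the 20th or the 60th percentile or none, the mean over probe sets, probe sets without an s, x or a suffix, a 3-fold rule and counting probe sets. The steps were tested on simulated data. Software was pandas 2.3.3 and numpy 2.4.6 under Python 3.11.15, with statsmodels 0.14.6 for lowess and matplotlib 3.10.9 for plots.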

Additional observations from a re-analysis of the deposited data

How the results depend on the processing

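No paired analysis was possible because the zones were measured on 1 array each. Of the values and counts recomputed for the antagonists and the pathway lists, 223 stayed within the tolerance and 30 moved. The tolerance was the pooled SD of 0.34 for log2 differences and medians and 1.5 times for counts. Part of the 223 could not move, so their number does not measure stability. A floor under both signals of a gene leaves its difference unchanged, and so does the mean over probe sets for a gene with only 1. By construction, a higher floor shortens differences and a lower one admits more genes. Other causes were not tested.

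Raising the floor to the 60th percentile gave log2 differences of -3.53 (*Grem1*), -0.98 (*Chrd*), 1.20 (*Chrdl1*) and 0.26 (*Fst*), and *Chrdl2* was not compared. At 2-fold, 1 antagonist, 2 ligands and 1 SMAD gene were then higher in the columnar/hypertrophic specimen, and 3 ligands and 1 receptor lower. Of all compared genes, 7.68% passed 2-fold at that floor, against 10.4% in the main setting. With a floor at the 20th percentile or none, *Chrdl1* was at 3.47, the ligand median was 0.31, and 4 BMP targets were higher in the columnar/hypertrophic specimen. Other modulators then numbered 2 higher and 2 lower at the 20th percentile, and 5 higher and 3 lower with no floor. Among all compared genes 15.5% passed 2-fold at the 20th percentile and 24.5% with no floor. With the mean over probe sets *Chrdl1* was at 2.01 and 0 SMAD genes were lower, while 9.11% of all compared genes passed 2-fold. On probe sets without an s, x or a suffix, 0 other modulators and 1 receptor were lower, and 0 BMP targets were higher. Of all compared genes, 10.5% passed 2-fold in that setting. *Grem1* and *Chrdl2* had no value in it, since the only probe set of each has an a suffix. The 3-fold rule left 2 ligands, 1 receptor, 0 SMAD genes and 0 BMP targets lower and 1 SMAD gene higher. It was passed by 3.73% of all compared genes. Counted as probe sets, 4 antagonist probe sets were higher in the columnar/hypertrophic specimen and 4 lower. The median of the SMAD genes, 0.04, turned to -0.03 after quantile normalization, after lowess centring and with the floor at the 60th percentile. It was -0.20 with the mean over probe sets and -0.15 on probe sets without an s, x or a suffix. *Nog*, within 2-fold throughout, was at 0.01 after quantile normalization and lowess centring.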
